A study of Mus musculus with 6 samples.

Results

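Myc, its partner Max and 40 genes of nucleolar ribosome synthesis were examined in macrophages of mice that had breathed cigarette smoke or room air. The 42 members were chosen by name from the known parts of the pathway, and all 42 of them were found among the 19386 genes of the authors' table. Each of the 42 also had an adjusted p there, as did 12082 genes in all. The macrophages were grown from erythrocyte-depleted bone marrow of wild-type C57BL/6 mice in medium with L929 supernatant and taken on day 11. RNA was sequenced from 3 libraries of room air-exposed mice and 3 libraries of cigarette smoke-exposed mice, with no further agent in either group. The smoke was given to the animal, so the cells had been in culture, away from it, when RNA was taken. The labels give the mice neither an age nor a length of exposure, and L929 supernatant is a conditioned medium that supplies macrophage growth factor.

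Myc is a transcription factor that binds DNA as a dimer with Max, most strongly at the E-box CACGTG, and ribosome synthesis is among the best known programmes it drives. In the nucleolus, RNA polymerase I transcribes the ribosomal RNA precursor, small nucleolar ribonucleoproteins modify it, and separate sets of assembly factors process it into the small and the large ribosomal subunit. In macrophages, growth factor signals that start division raise Myc, and the demand for ribosomes follows growth.

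In the authors' deposited table, 5 of the 42 members were higher after smoke at an adjusted p under 0.05, namely Nhp2, Fbl, Bop1, Nop16 and Pes1, and 0 were lower. Over all genes tested, 4.15% were called higher and 3.53% lower by the same rule, together 929 genes or 7.69%. By role, Fbl belongs to the box C/D proteins, Nhp2 to the box H/ACA proteins, and Bop1, Nop16 and Pes1 to the large subunit factors, and differences between roles were not tested. By sign alone, 35 members had a positive log2 fold change and 7 a negative one in the authors' deposited table, against 5999 positive among the 12082 genes. Their median log2 fold change was 0.27, and that of all genes tested was -0.003. At an unadjusted p under 0.05, 20 members were higher, where the background is 12.0%, and 1 was lower, where it is 10.8%. The count depended on the processing: with a trend in transcript GC content and length removed from all genes, 1 member passed, Fbl, where 0.828% of genes were called higher. With other handling of the adjustment, the members called higher numbered 7 with only genes of a mean of at least 50 normalized counts, where 5.21% of genes were called higher, 4 with no low-count filter, where it was 1.9%, and 6 after centring on the median of all genes, where it was 4.4%. The folds of the group means ran from 0.710 for Taf1d to 2.10 for Myc.

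**Figure D1:**
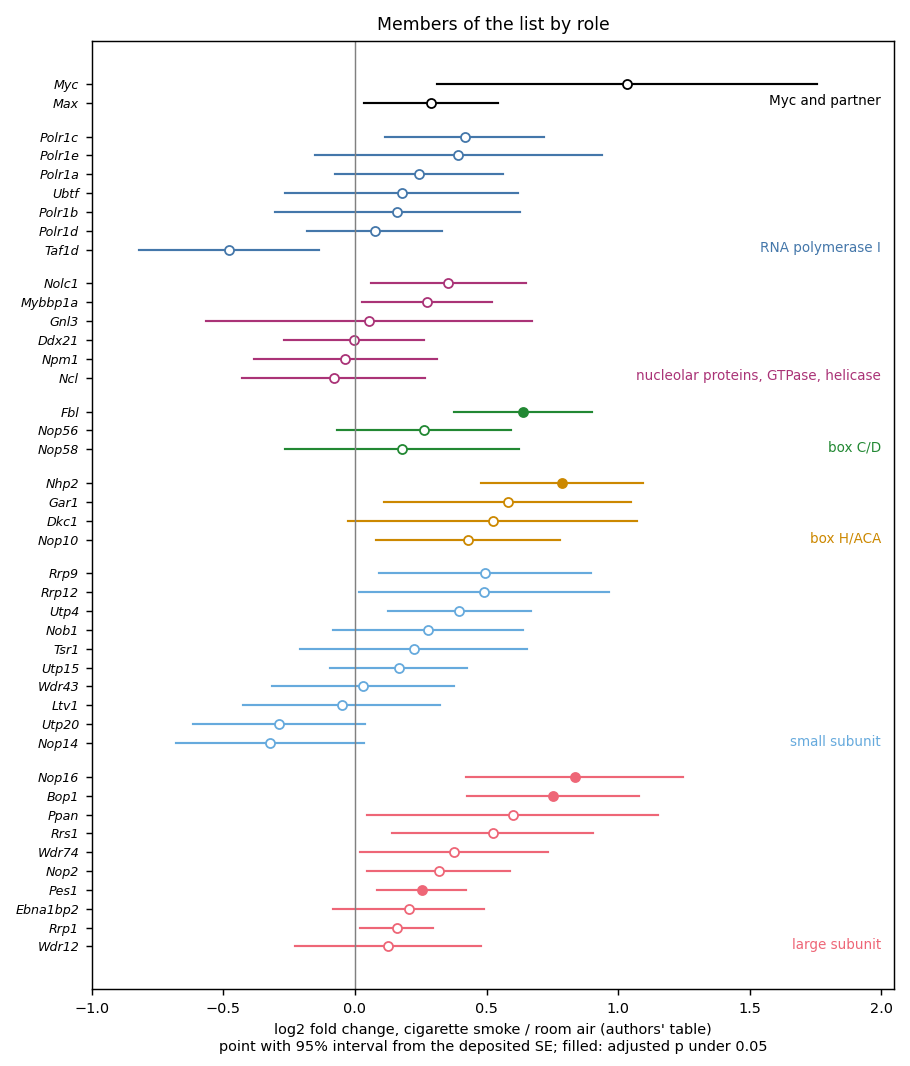
Log2 fold change of cigarette smoke over room air for each of the 42 members, grouped by role, from the authors' table. Lines are 95% intervals from the deposited standard errors and filled points have an adjusted p under 0.05. The 5 filled points lie at 0.25 to 0.84, and 7 points lie left of 0.

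The table holds the mean of each group and not the value of each library, so the spread among the 3 libraries of a group cannot be shown for expression. Every expression value given here, unless stated otherwise, is that of the authors' deposited table. Standard errors came from the authors' fit to 24 libraries, of which 18 are not analysed here. A lower level in such bulk samples can come from fewer cells of a type or from less RNA per cell, and these cannot be told apart. Macrophage markers were all 8 present, with a summed mean of 52690 normalized counts in room air and 54620 after smoke, and 0 of the 8 were called. Of the neutrophil markers 2 of 7 were listed, with a summed mean of 0.2001 and 0.1951, and of the B cell markers 3 of 4, with 6.313 and 4.139. The 3 of 4 dendritic cell markers listed summed to 1.289 and 1.017, and no T cell or erythroid marker was listed. The 5 stromal markers summed to 43.6 in room air and 9.38 after smoke, and 0 were called. The 5 proliferation markers (Mki67, Top2a, Ccnb1, Cdk1 and Birc5) summed to 7919 and 5893, with log2 fold changes of -0.57 to 0.15, and 0 of the 5 were called. Standard errors of these markers were 0.71 to 0.94, against a median of 0.18 for the members, so the lack of a call says little about these 5 markers. Their part in the members' levels was not tested.

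Myc itself, on chromosome 15 from 61985391 to 61990374 on the plus strand of GRCm38, had a mean of 38.5 normalized counts in room air and 80.8 after smoke in the authors' deposited table. The corresponding log2 fold change there was 1.03 with a standard error of 0.37, the largest of the 42, and its adjusted p of 0.0579 did not pass the threshold. With only genes of a mean of at least 50 normalized counts adjusted together, the value was 0.0495, so the call for Myc turned on the low-count filter. That filter takes the mean of both groups, and Myc passed it through its level after smoke, since its room air mean is under 50, so this value is no support for a change. Max, chromosome 12 from 76937269 to 76962201 on the minus strand, is the obligate partner, and its means in the authors' deposited table were 421.8 and 514.3, with a log2 fold change of 0.29 with a standard error of 0.13 and an adjusted p of 0.152. Per kilobase of the longest transcript, Myc stood at 16.5 normalized counts in room air and 34.5 after smoke, and Max at 217.2 and 264.8.

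The other genes of the Myc network, the Mxd and Mnt partners of Max, Mga, the Mlx proteins, Zbtb17 and the paralogs Mycn and Mycl, held 11 names, of which 10 had a test. In the authors' deposited table, 0 of the 10 were higher and 1 was lower, where 3.53% of all genes were called lower. That 1 was Mga, a Max-binding repressor, with means of 672.1 and 421.3 in the authors' deposited table and a log2 fold change of -0.67, standard error 0.21, adjusted p 0.0227. With the GC and length trend removed, Mga stood at -0.24 with an adjusted p of 0.768, so the call was lost. Among those with a test, Mycl had the highest log2 fold change, 0.35 with a standard error of 1.01, at means of 0.896 and 1.70 normalized counts. Mycn was listed with a mean of 0.200 in room air and 142.8 after smoke, but the authors' deposited table gives it no p, as for 13 genes in all, and the standard error of its log2 fold change was 4.04. Which of the 3 smoke libraries carry the Mycn reads cannot be read from a group mean.

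Genes of RNA polymerase I transcription had 0 of 7 calls, where 7.69% of all genes were called in either direction. Of these 7 genes, 6 had a positive log2 fold change and the median was 0.18. Polr1c, a subunit shared with RNA polymerase III, was the highest in the authors' deposited table, with means of 91.8 and 123.4, a log2 fold change of 0.42, a standard error of 0.15 and an adjusted p of 0.0695. The lowest was Taf1d, a subunit of the promoter selectivity factor SL1, with means of 264.9 and 188.2 and a log2 fold change of -0.48, standard error 0.17, adjusted p 0.0637 in the authors' deposited table. Taf1d had the lowest log2 fold change of the 42, and its gene holds a series of small nucleolar RNA genes in its introns. The catalytic subunits Polr1a and Polr1b had log2 fold changes of 0.24 and 0.16, and the promoter-binding factor Ubtf had 0.18, with standard errors of 0.16, 0.24 and 0.23 in the authors' deposited table. Polr1d at 0.07 and Polr1e at 0.39 complete the group, with standard errors of 0.13 and 0.28.

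The group of nucleolar phosphoproteins, a GTPase and a helicase had 0 of 6 calls, where the share over all genes was 7.69%. It held 3 positive and 3 negative values, with a median log2 fold change of 0.02. Npm1, a histone and ribosomal protein chaperone, had means of 1616 and 1570 normalized counts, and Ncl, nucleolin, had 1953 and 1842, in the authors' deposited table. Ncl was the lowest of this group, with a log2 fold change of -0.08, standard error 0.18 and adjusted p 0.852. Nolc1, a chaperone of small nucleolar ribonucleoproteins, was the highest, with means of 287.6 and 364.6 and a log2 fold change of 0.35, standard error 0.15, adjusted p 0.126, in the authors' deposited table. The RNA helicase Ddx21, the GTPase Gnl3 and the Myb-binding protein Mybbp1a lay between, at -0.004, 0.05 and 0.27. Per kilobase in room air, Npm1 stood above 98.4% of all genes tested and Polr1e above 13.1%, so the list covers a wide range of levels.

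Among the box C/D proteins, which carry out guided 2′-O-methylation of RNA, 1 of 3 passed, where 4.15% of all genes were called higher. Fbl, fibrillarin, is the methyltransferase of the complex and lies on chromosome 7 from 28169710 to 28179269 on the plus strand. Its means in the authors' deposited table were 162.9 in room air and 250.4 after smoke, a fold of 1.54. The log2 fold change was 0.64 with a standard error of 0.13, and the adjusted p was 0.000388. Its scaffold partners Nop56 and Nop58 had log2 fold changes of 0.26 and 0.18, with standard errors of 0.17 and 0.23 and adjusted p of 0.366 and 0.70. With the GC and length trend removed, Nop56, Nop58 and Fbl stood at 0.26, 0.57 and 0.50, and Fbl alone passed. Whether Fbl differed from its partners was not tested.

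All 4 box H/ACA proteins, which direct pseudouridylation, had positive values with a median log2 fold change of 0.55, and 1 of the 4 passed. Among all genes, 49.7% were positive and 4.15% were called higher. Nhp2, chromosome 11 from 51619735 to 51623714 on the plus strand, had means in the authors' deposited table of 91.9 and 157.1 normalized counts, a fold of 1.71. Its log2 fold change was 0.79 with a standard error of 0.16, and the adjusted p was 0.000193, the smallest of the 42. With the GC and length trend removed, Nhp2 stood at 0.48 with an adjusted p of 0.0985, so the call was lost. The 3 others did not pass. Gar1 stood at 0.58 with an adjusted p of 0.113, the pseudouridine synthase Dkc1 at 0.52 with 0.246, and Nop10, the lowest, at 0.43 with 0.115 there. The means of Nop10 were 61.0 and 83.6 normalized counts, with a standard error of 0.18 on its log2 fold change.

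Factors of the small subunit, most of them parts of the processome that cleaves the precursor near its 5′ end, had 0 of 10 calls. The share of all genes called in either direction was 7.69%. Of these 10 genes, 7 were positive, and the median log2 fold change was 0.19. Rrp9, a U3 small nucleolar RNA-binding protein, was the highest in the authors' deposited table, with means of 37.6 and 51.1, a log2 fold change of 0.49, a standard error of 0.20 and an adjusted p of 0.115. Nop14 was the lowest, with means of 223.1 and 175.2, a log2 fold change of -0.32, a standard error of 0.18 and an adjusted p of 0.284. Utp4, a subunit of the early t-UTP complex, came closest to the threshold, where the authors' deposited table gave 0.40 and an adjusted p of 0.0540. It passed, at an adjusted p of 0.0463, among genes of a mean of at least 50, a filter that left Rrp9 out. It also passed, at 0.0471, after centring on the median of all genes. Utp4 was the 1 call of the group in each setting, where 5.21% and 4.4% of all genes were called higher. Utp20 and the export factor Ltv1 were the other 2 negative values of the group, at -0.29 and -0.05. The endonuclease Nob1, which makes the last cut of the small subunit RNA, stood at 0.28 with a standard error of 0.18, and Rrp12, Tsr1, Utp15 and Wdr43 at 0.49, 0.22, 0.17 and 0.03.

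Factors of the large subunit were all positive as deposited, 10 of 10, with a median log2 fold change of 0.35, where 49.7% of all genes were positive, and 3 passed the threshold, where 4.15% of all genes were called higher. Bop1 and Pes1 form, with Wdr12, the PeBoW complex that is needed for processing of the large subunit RNAs. Bop1, chromosome 15 from 76452989 to 76477277 on the minus strand, had means of 173.8 and 295.4 normalized counts in the authors' deposited table, and its log2 fold change was 0.75 with a standard error of 0.17 and an adjusted p of 0.000852. Pes1, chromosome 11 from 3963975 to 3980004 on the plus strand, had means of 477.5 and 567.0, a log2 fold change of 0.25 with a standard error of 0.09 and an adjusted p of 0.0446. The call for Pes1 ended, at an adjusted p of 0.0703, when every gene with a p was adjusted together. Wdr12, the remaining subunit, was the lowest of the group in the authors' deposited table, with means of 131.5 and 142.4. Its log2 fold change there was 0.13, standard error 0.18, adjusted p 0.739. With the GC and length trend removed, Wdr12 stood at 0.54, Bop1 at 0.49 and Pes1 at 0.19, and none of them passed. Differences within the complex were not tested.

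Nop16, an assembly factor of the large subunit, lies on chromosome 13 from 54584185 to 54590090 on the minus strand. Its means in the authors' deposited table were 55.2 and 95.05 normalized counts, a fold of 1.72 and the highest log2 fold change of the group, 0.84, with a standard error of 0.21 and an adjusted p of 0.00404. Beyond the 3 that passed, Ppan, Rrs1, Wdr74 and the RNA methyltransferase Nop2 had log2 fold changes of 0.60, 0.52, 0.38 and 0.32. Ebna1bp2 and Rrp1 had 0.20 and 0.16. Of the 10 genes of this group, 8 had an unadjusted p under 0.05 in the higher direction, where the background is 12.0%. With the GC and length trend removed, 4 of the 10 did, where it is 6.01%, and 0 passed the adjusted threshold.

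**Figure D2:**
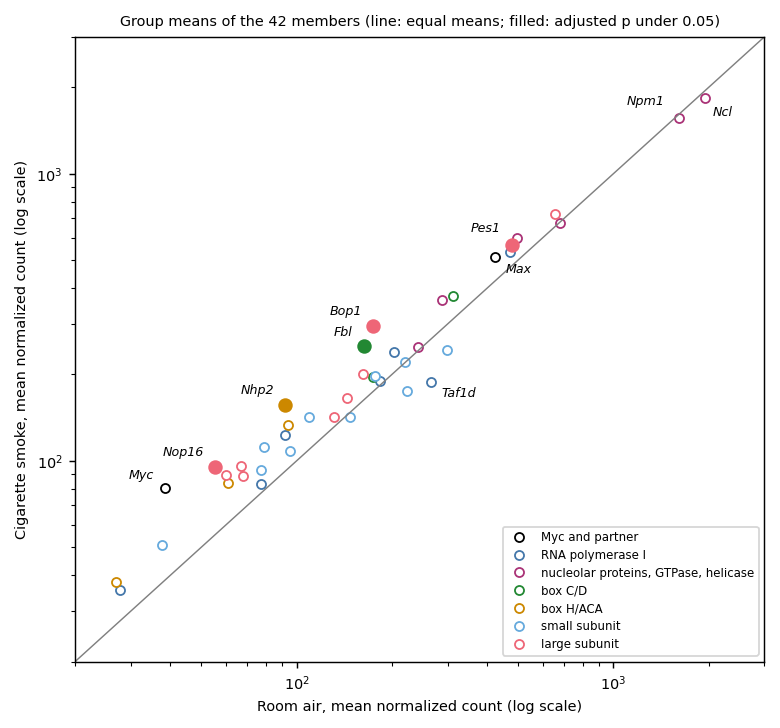
Mean normalized count of each of the 42 members in room air (x, log scale) and after cigarette smoke (y, log scale), coloured by role, with the line of equal means. Filled points passed an adjusted p of 0.05. The 4 called members other than Pes1 lie at 55.2 to 173.8 in room air, while Ncl and Npm1, at the top, lie just under the line.

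A further 108 names of ribosome biogenesis that are not members were compared in the same way, and 99 of them were listed and tested. In the authors' deposited table, 8 of the 99 were higher, against the background of 4.15%, and 0 were lower, with 65 positive values and a median log2 fold change of 0.10. Eif6, which keeps the large subunit from joining the small one too early, was the highest, with means of 161.4 and 292.0, a log2 fold change of 0.84 and a standard error of 0.15. The others were Nle1 at 0.76, Nol12 at 0.68, Bysl at 0.60, Noc4l at 0.54, Ddx54 at 0.43, Emg1 at 0.39 and Rrp7a at 0.39. Utp14b was the lowest, at -0.55 with a standard error of 0.36, and did not pass.

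Fold changes in this comparison moved with transcript composition across all genes and across the members. Over 12071 genes with a known transcript, the rank correlation of the log2 fold change with the GC content of the longest transcript was 0.483, and with its length it was -0.448. Over the 42 members the same values were 0.62 and -0.437. These are correlations across genes, which share the same libraries. The members also showed one of -0.589 with the mean level, where all genes showed -0.0739. Called members had a GC content of 50.3% to 58.2% and lengths of 1042 to 2923 nucleotides. Taf1d, the lowest member, lay outside both ranges, with a GC content of 40.2% and a length of 4881. Nop14, the next lowest, had a GC content of 48.3%, just under the first range, and a length of 2702, within the second. With the GC and length trend removed, Taf1d stood at -0.21 and Nop14 at -0.36. Cut by length into groups of 14, the short, middle and long members had median log2 fold changes of 0.40, 0.29 and 0.17.

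**Figure D3:**
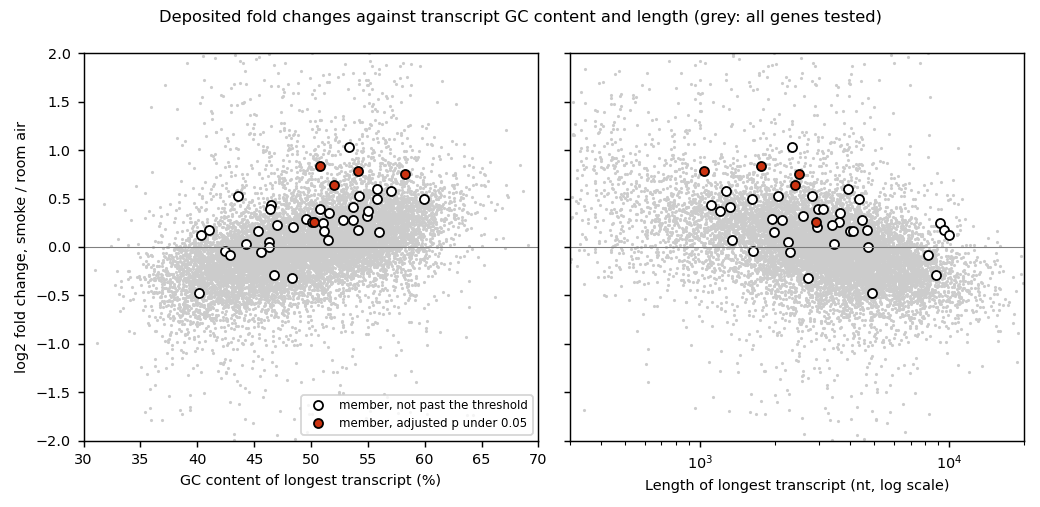
Deposited log2 fold change (y) against GC content in percent (left) and length in nucleotides on a log scale (right) of the longest transcript, for all genes tested (grey) and the members (circles, red where the adjusted p was under 0.05). Both clouds tilt, with rank correlations of 0.483 and -0.448, and the members share the tilt, with 35 of 42 above 0. The axes leave out 139 genes on the left and 246 on the right.

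When that trend was removed from all genes, 1 member still passed, Fbl, with a log2 fold change of 0.50 and an adjusted p of 0.0232. The background of genes called higher was then 0.828%, and that of genes called lower 0.439%. Nhp2 was left at 0.48 with an adjusted p of 0.0985, Nop16 at 0.67 with 0.0793, Bop1 at 0.49 with 0.125, Pes1 at 0.19 with 0.331 and Myc at 0.86 with 0.290. After removal 35 members were again positive and the median was 0.24, but 4 members had changed sign. Polr1d and Rrp1 were then negative, at -0.15 and -0.10, and Ncl and Ddx21 positive, at 0.25 and 0.13, so 9 of the 10 large subunit factors were positive. At an unadjusted p under 0.05, 13 members were then higher, against a background of 6.01%. The median of the short members was then 0.13, while those of the middle and long ones were 0.26 and 0.27. None of these 4 passed in either form, and Ddx21, at -0.004 as deposited, was also positive after centring on the median of all genes. Outside the members, 1 of the other biogenesis genes was then higher, Emg1 at 0.51, and 1 was lower, Utp3 at -0.54.

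**Figure D4:**
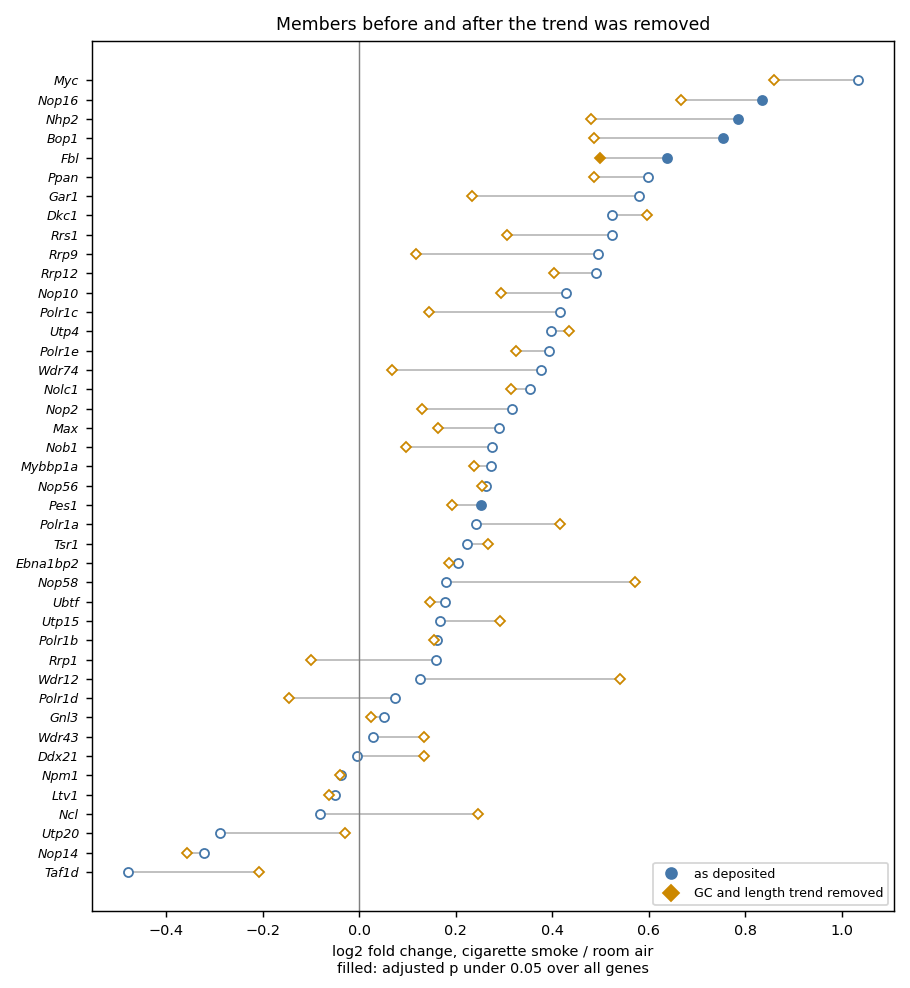
Log2 fold change of each member as deposited (circles) and after removal of the GC and length trend of all genes (diamonds), with filled symbols at an adjusted p under 0.05. Of the 5 filled circles, 1 has a filled diamond, that of Fbl.

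Promoter sequence was looked at because CACGTG is the site bound by Myc and Max. Promoters here are the 300 bases from 250 before to 50 after a start site in RefSeq, build GRCm38.p6, and 36 of the 42 members had one; Bop1, Fbl, Myc, Npm1, Rrp12 and Rrs1 had no entry. CACGTG, which reads the same on both strands, was present in 9 of the 36 members or 25.0%, and in 8.09% of 27025 genes. The 9 members had a median log2 fold change of 0.25, and the 27 without it 0.24, and this difference was not tested. Of the members called, 1 had it, Pes1, and 2 lacked it. The windows below show the 30 bases around it, 5′ to 3′ on the strand of the gene, with the motif in capitals, for Pes1 as the called member, and for Max, Utp4, Nop2, Utp20 and Ltv1, which were picked after their values were seen. Of the 9, 7 had a positive log2 fold change, and Utp20 and Ltv1 a negative one, at -0.29 and -0.05.
Pes1 (chr11:3963965-3963994, plus strand): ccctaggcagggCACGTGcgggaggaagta
Max (chr12:76962234-76962263, minus strand): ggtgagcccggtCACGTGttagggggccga
Utp4 (chr8:106893643-106893672, plus strand): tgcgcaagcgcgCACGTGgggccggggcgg
Nop2 (chr6:125131811-125131840, plus strand): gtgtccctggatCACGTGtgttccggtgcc
Utp20 (chr10:88826765-88826794, minus strand): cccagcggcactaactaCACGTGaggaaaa
Ltv1 (chr10:13193092-13193121, minus strand): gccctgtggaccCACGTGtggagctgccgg

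The motif begins 3 bases before the start in Max and 60 before it in Nop2, and at the third base of the transcript in Pes1. The variant CACGCG, read as CGCGTG on the other strand, was present in 14 of the 36 members or 38.9%, and in 10.5% of genes. These 14 had a median log2 fold change of 0.31 and the 22 without it 0.21. Nhp2, Nop16 and Pes1, the 3 called members with a promoter entry, all carried it, and 0 of the 22 without it were called, where 4.15% of all genes were called higher, and the difference was not tested. With the GC and length trend removed 0 of the 14 were called, and Taf1d, the lowest of the 42 at -0.48, carries it too. The windows of Nhp2 and Nop16, both near the start of the transcript, are shown because these genes had the largest called changes with an entry.
Nhp2 (chr11:51619764-51619793, plus strand): ggaggcggcggcCGCGTGgttcctctatgc
Nop16 (chr13:54590029-54590058, minus strand): ggagactattaaCACGCGgctctgagagcg

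Both motifs hold CG pairs, and GC content moved with the fold change of all genes, as given above. A match is a description of the letters, and whether Myc or Max binds there was not measured.

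Several members are hosts of small nucleolar RNAs. On the same strand, 11 members overlap another annotated gene, most often a small RNA in an intron, among them Taf1d, Gnl3, Nop56, Nop58, Ncl, Wdr43, Tsr1, Ppan and Dkc1. These 11 had 0 calls and a median log2 fold change of 0.18, and the other 31 had 5 calls and a median of 0.32, where 4.15% of all genes were called higher; this difference was not tested. Of the called members, Nhp2 overlaps Rmnd5b, Bop1 overlaps Mroh1 and Scx, and Pes1 overlaps 4930556J24Rik, each on the opposite strand. Fbl, Nop16 and Myc overlap no annotated gene. How strand was used in counting is not given in the sources used here, so reads of the overlapping pairs are uncertain.

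Splicing was measured per library, as percent inclusion of JuncBASE events. Within the members, 36 events were found in 13 genes, with 8 in Nop56, 7 in Gnl3 and 4 each in Max and Nop58. All 6 libraries gave a value for 19 of them. The first smoke library lacked a value for 17 of the 36 events and the first room air library for 3, as against 0 in each of the other 4. By limma over all 10376 events, 0 member events had an adjusted p under 0.05, as did 0 of all events, and the lowest member value was 0.350. At an unadjusted p under 0.05, 3 member events passed, where the background is 10.8%. The room air and smoke values did not overlap for 5 of the 36, where the background is 22.8%.

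A retained intron of Gnl3, 104 bases long at 31013325 to 31013428 of chromosome 14, was retained at 5.88%, 6.67% and 4.84% in the room air libraries and at 0%, 0% and 3.23% in the smoke libraries. All 3 smoke values lie under the room air values, and limma gave an unadjusted p of 0.0197 and an adjusted p of 0.350. An alternative donor of Nop56, counted from junctions alone, was used at 7.89%, 1.59% and 1.49% in room air and at 10.0%, 9.38% and 15.7% after smoke, with an adjusted p of 0.413 by limma. Its group means were 3.66% ± 3.67 and 11.7% ± 3.46 (SD, n = 3 each), and the room air library at 7.89% lies nearer the smoke values than its own group. The same donor span, counted with exon reads, stood at 10.3%, 6.06% and 2.94% in room air and at 10.0%, 9.38% and 12.5% after smoke. There the groups overlap, and limma gave an adjusted p of 0.550. Ltv1 had an alternative donor at 10.0%, 7.69% and 7.69% in room air and at 0% and 4.17% in the 2 smoke libraries with a value, with an adjusted p of 0.452 by limma. Without the third smoke library, the Gnl3 intron and an intron of Rrp1 had an adjusted p under 0.05 by limma. So did 10.9% of all events, a share that takes in events with no value in the first smoke library. The Ltv1 donor was then left with the second smoke library alone, so its fit held no spread of the smoke group. Its log2 odds difference was -3.36.

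Retention of the members' introns was lower on average after smoke in 12 of 13 introns, or 92.3%, which is close to the 89.9% of all 3305 retained introns. Over the 7 member introns with a value in every library, the mean level was 5.64%, 8.73% and 6.05% in room air and 2.93%, 1.99% and 6.12% after smoke. The third smoke library lies inside the room air range, so the groups overlap. The group means were 6.81% ± 1.68 and 3.68% ± 2.17 (SD, n = 3 each), a difference of -3.13 percentage points with a two-sided exact permutation p of 0.3, where 0.1 is the smallest that 3 against 3 allows. Over the 1985 other introns the difference was -4.24 points, from 15.7% to 11.5%, with an exact permutation p of 0.1. Of the 7 introns, 4 belong to Nop56 and share its reads; they gave -3.90 points, and the 3 outside Nop56 gave -2.10 points.

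Among other events, a cassette exon of Ubtf was included at 19.0%, 21.3% and 19.0% in room air and at 28.6%, 31.6% and 20.5% after smoke. An alternative last exon of Npm1 stood at 28.8%, 29.6% and 29.7% in room air and at 37.1%, 34.6% and 28.6% after smoke. In both, 1 smoke library lies near the room air libraries and 2 lie above them, and limma gave unadjusted p of 0.284 and 0.572. A cassette event of Max ranged from 25.7% to 42.4% in room air and from 25.5% to 33.3% after smoke.

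**Figure D5:**
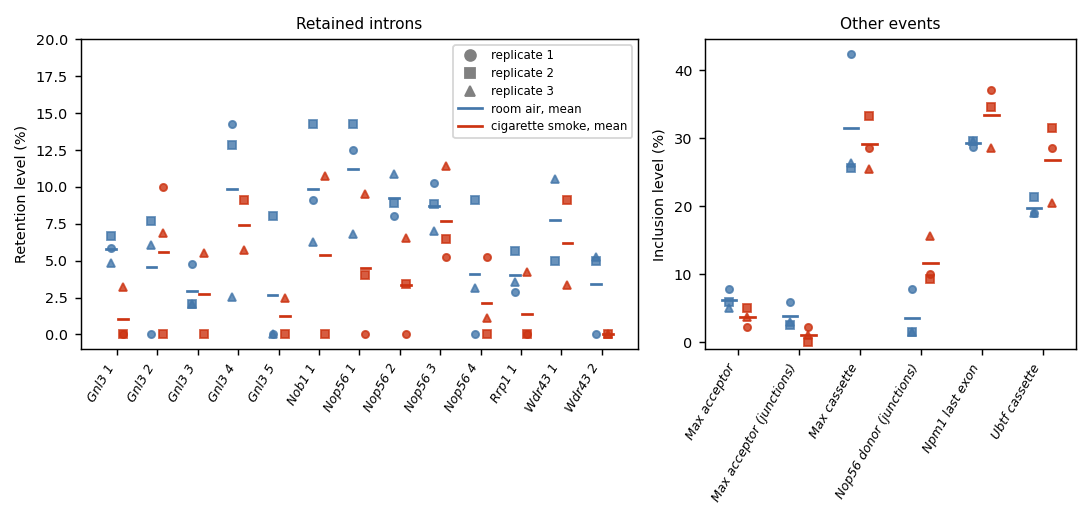
Percent level per library of the 13 member introns (left) and of 6 other member events (right), with room air in blue, cigarette smoke in red, a symbol per replicate and a bar at the group mean. Introns are numbered along the chromosome within each gene, and libraries without a value have no symbol. Most red bars on the left lie under the blue ones, while the symbols of both groups overlap in 11 of the 13 introns.

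In rMATS, the authors' deposited table held 21 retained introns in 11 members, and 2 of them had a false discovery rate under 0.05, where the background is 14.5%. These were an intron of Utp15 with a difference of 3.4 percentage points and a false discovery rate of 0.0138, and an intron of Ppan with 10.7 points and 0.0195, in the authors' deposited table. An intron of Nob1 came next, with 9.2 points and 0.0574. The differences are those of the first sample set minus the second, and which set is smoke is not stated in the table, so no direction is given. Neither the Utp15 nor the Ppan intron had a JuncBASE event, and the 2 introns present in both sources, of Nop56 and Nob1, had false discovery rates of 0.243 and 1.0 in the authors' deposited table.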

How the data were processed

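Total RNA of 6 libraries was sequenced with a directional kit, per the labels' protocols; STAR, DESeq2, SAMtools 1.9, bedtools 2.27.1 and the build mm10 are named in the submitters' processing notes. The deposited signal is the mean of size-factor-normalized counts per group, per the file headers. The log2 fold change, its standard error and the Wald score are also values of the authors' table, from a fit to 24 libraries. The p-values, raw and adjusted, were deposited by the authors too. Percent inclusion per event and library comes from JuncBASE and was deposited by the authors. Other deposited quantities by the authors are the differences in the rMATS table. Of the rMATS output, 6 columns of per-sample values were left out, since the groups of its sets are not stated. Total counts per library are not known from these tables.

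No per-library expression values were used, so in place of the planned count test the authors' own fit is described, with members called at an adjusted p under 0.05. Inclusion levels p were tested as log2((p + 1)/(100 - p + 1)) with limma 3.58.1 in R 4.3.3 over all 10376 events, with Benjamini-Hochberg adjustment; replicates are samples the labels number separately, and p-values measure the spread between them. The GC and length trend was a weighted fit of 2 natural splines, 4 degrees of freedom apiece, in statsmodels 0.14.6, and each residual was set against its deposited standard error for a new p. Both methods were tested on simulated data. Positions came from GENCODE M21 on GRCm38; of 6001 known JuncBASE events, 98.7% had exclusion junctions identical to its introns. The members, lists and tests were chosen with earlier results of these data known. Full values are given for Myc and Max, each called member and the highest and lowest of each role. Alternatives were other low-count filters, centring, the ratio of means, other pseudocounts, left-out replicates and a replicate block.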

Additional observations from a re-analysis of the deposited data

How the results depend on the processing

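The count of members called, 5, became 1 with the GC and length trend removed, both in all and for higher calls alone. It was 7 with only genes of a mean of at least 50, 4 with no low-count filter and 6 after centring on the median of all genes, which shifted values by -0.00993. The share of all genes called higher was 5.21%, 1.9% and 4.4% in those settings, and 0.828% with the trend removed. Utp4 passed under the first and the third, Myc, whose room air mean is under 50, under the first alone, and Pes1 was lost under the second. No setting gave a lower call. With the trend removed, the direction was reversed for 4 members, Ncl (0.247), Ddx21, Polr1d and Rrp1. Without the third smoke library, the Gnl3 and Rrp1 introns had an adjusted p under 0.05 by limma. Every other left-out library gave 0 member events at that threshold. The Ltv1 donor is not counted, as the second smoke library alone was left in its smoke group. At an unadjusted p under 0.05, 3 member events passed in the full set and 8 without the third smoke library. Those 8 can include events left with the second smoke library alone, since 17 of the 36 lack a value in the first. The share of all events at an unadjusted p under 0.05 was not computed for left-out libraries. Counts without the second room air library were 0, and without the third room air or the first smoke library 1, at an unadjusted p under 0.05. The cause was not tested. The retention difference ran from -4.35 to -2.17 points over left-out replicates. The rMATS count of 2 was 0 at a false discovery rate under 0.01 and 1 with at least 10 points, by construction a stricter rule.

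With the replicate number as a block in limma, 0 member events had an adjusted p under 0.05 and 3 an unadjusted one, as without it. The retention difference averaged over same-numbered libraries was -3.13, which equals the difference of group means by construction and so tests nothing. Same-numbered libraries had correlations of 0.0177, -0.0404 and -0.0888 over 5933 events, and differently numbered ones -0.072 to 0.127. Each value was centred on the mean of its own group of 3, so these correlations cannot decide whether the numbers pair the libraries. No member intron with a value in every library had a mean over all 6 libraries of at least 10%, so that alternative gave no value, and count models and left-out replicates could not be run for expression.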
